A study of Mus musculus with 10 samples.

Results

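The RNA of wild-type mouse telencephalon at embryonic day 12 is described here by the level of its genes. The samples are all those whose polr genotype label reads wt, 5 of the 10 samples of the series. The other 5 carry a null or a missense allele of Polr1a, the gene of the biggest RNA polymerase I subunit, and they enter no result. Each sample is total RNA of telencephalon, and the labels name no treatment, strain, sex or litter and do not say how many embryos went into a sample. Sample titles carry a number: Polr_2048 for wild types 1 and 2, and Polr_2138 for wild types 3, 4 and 5. The labels do not give its meaning.

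The telencephalon is the front of the embryonic brain. Its dorsal wall, the pallium, becomes the cerebral cortex and makes glutamatergic neurons, and its ventral wall forms the ganglionic eminences, which make GABAergic neurons of the basal ganglia and the interneurons that migrate into the cortex. At this stage radial glial progenitors divide at the ventricle, intermediate progenitors and the first neurons leave them, the cortical hem at the dorsal midline secretes Wnt and Bmp proteins, and the choroid plexus begins to form beside it.

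Values are the deposited log2 levels, in which a gene is expressed relative to the total of its sample (CPM-like). Long transcripts collect more reads, so a rank by level carries the effect of length. Genes are therefore set against each other per kilobase: the log2 level minus the log2 of the transcript length in kilobases, with the number of the 5 samples in that order for the pairs the text turns on. No test between groups was made. The labels do not say that the samples are separate embryos, so an SD is the spread between these samples. The sequencing depth is unknown, since the values of every sample add up to nearly the same total, and no counting error can be given.

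Of 14796 named genes, 12914 were above a log2 level of 0 in all 5 wild types and 114 in none. The median of the mean levels was 4.74, and the 25th and 75th percentiles were 2.57 and 6.15. The 10 genes of highest mean level held on average 3.80% of the summed level of a sample, and 1203 to 1288 genes made up 50% of it. Pairs of wild types correlated across genes with Pearson's r of 0.947 to 0.961, and the mean r was 0.956 between samples of the same title number and 0.954 between others; genes are not independent replicates. Principal components were taken over genes of at least median level. The first, with 35.1% of the variance, separated wild type 1 (score 0.89) from the other 4 (-0.13 to -0.29). The second, with 30.4%, set wild type 4 apart (0.86), and the third, with 21.3%, wild type 2 (0.79). Among the same genes wild type 1 was the sample farthest from the mean in 30.3%, against 12.6% to 21.4% for each other wild type.

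The distance of wild type 1 ran with transcript length. Each sample was set against the mean of the other wild types. In the shortest group of genes, of 0.204 to 1.94 kilobases, the median deviation of wild type 1 was 0.15 on the log2 scale. In the longest, above 5.48 kilobases, it was -0.13. Wild type 2 went the opposite way, from -0.09 to 0.07, as did wild type 4, from -0.07 to 0.03. Wild types 3 and 5 each stayed within 0.03 of the mean of the others in every length group. The cause was not tested. Results below that rest on 1 sample are given with the values of all 5.

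The labelled tissue was checked against its defining genes. All 12 genes of a telencephalon list lay above the median of all genes, which 50% of genes do by definition. Lhx2, a LIM homeobox factor of the cortical primordium, stood at 8.74, 8.88, 8.84, 8.74 and 8.84 in wild types 1 to 5 (mean 8.81 ± 0.06, SD, n = 5), or 7.30 per kilobase. No sample lay far from the others. The lowest member, Fezf2, a zinc finger factor of deep-layer neurons, was at 5.22 ± 0.12.

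Genes of neighbouring tissues were mostly low or without a value. Of 39 Hox genes, which mark hindbrain and spinal cord, 2 have a value, Hoxd1 at -0.70 ± 1.77 and Hoxa3 at -1.20 ± 0.44. Of 16 measured genes of thalamus and midbrain, 2 were above the median, Tcf7l2 at 7.24 ± 0.62 and Barhl2 at 5.13 ± 0.24, and En2 has no value. Without wild type 2 the count was 4. Wild type 4 was the highest in Tcf7l2, an effector of Wnt signalling that is abundant in the thalamus, with 6.99, 6.73, 7.53, 8.18 and 6.76 in wild types 1 to 5. The same sample was highest in Gbx2, a homeobox gene of the thalamus, with 4.54, 4.26, 4.77, 5.35 and 4.35. The summed share of the thalamus and midbrain list was 0.0510% of the summed level in wild type 4 and 0.0244% to 0.0405% in the others. Tcf7l2 had the highest level of the list, so it weighs most in this share. The list as a whole did not single out wild type 4. Barhl2 was highest in wild type 1 (5.44, against 5.07 in wild type 4), and several genes below the median were highest in wild type 3. Of 13 genes of eye and hypothalamus, Otp (5.49 ± 0.22) and Fezf1 (5.37 ± 0.28) were above the median. Fezf1 is also a member of the telencephalon list. The eye-field gene Rax was at 0.97 ± 0.72 and Six6 at 0.93 ± 0.66.

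**Figure D1:**
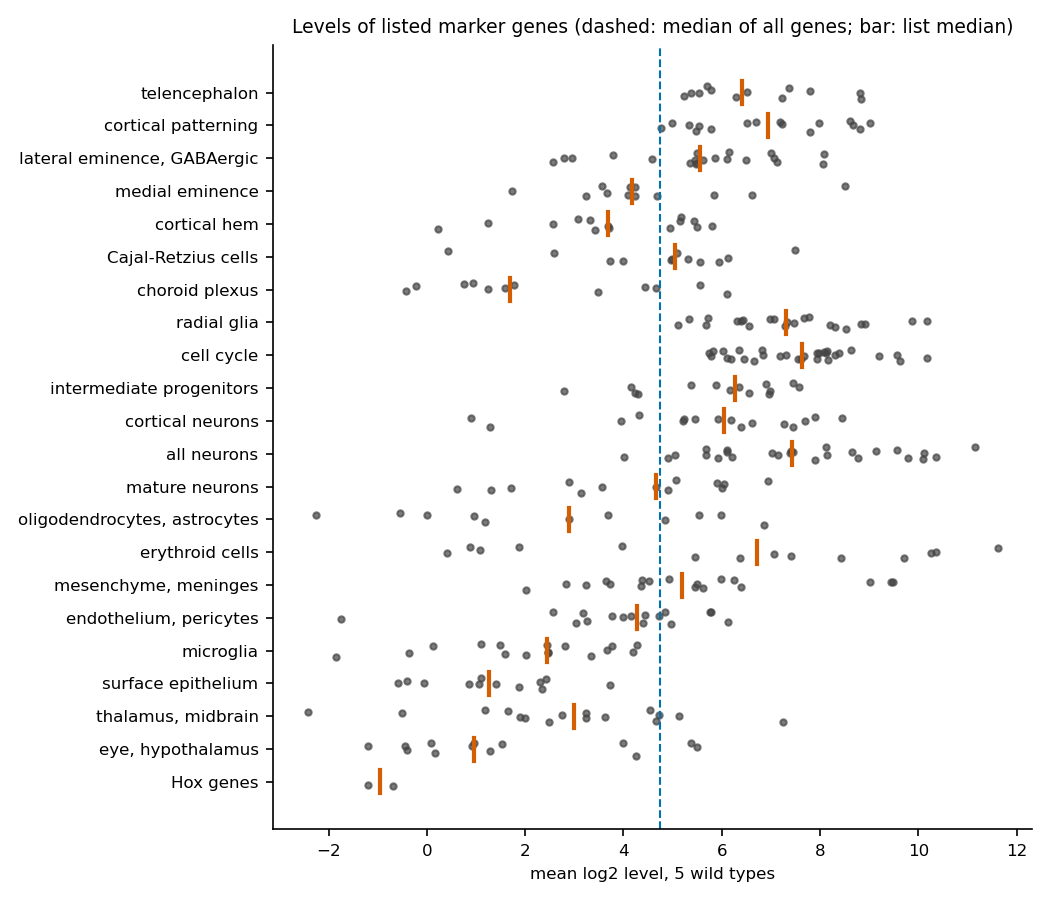
Mean log2 level over 5 wild types (x axis) of each measured gene (points) of 22 marker lists (rows), with the list median as a bar and the median of all genes, 4.74, as a dashed line. The telencephalon, cortical patterning, radial glia and cell cycle lists lie wholly above the line, and the microglia, surface epithelium and Hox lists wholly below it.

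Ranked by level, with length included, the highest genes were those of translation, the mitochondrion, the cytoskeleton and red blood cells. mt-Co1, a cytochrome oxidase subunit encoded in mitochondrial DNA, had the highest mean level, 12.82 ± 0.17, followed by the elongation factor gene Eef1a1 (12.71 ± 0.06), the alpha-tubulin gene Tuba1a (12.24 ± 0.08) and the embryonic beta-like globin gene Hbb-y (11.61 ± 0.32). The beta-tubulins Tubb5 (11.49 ± 0.06) and Tubb2b (11.18 ± 0.07), the actins Actg1 (11.34 ± 0.09) and Actb (11.11 ± 0.13), the chaperone Hsp90ab1 (11.34 ± 0.07), the elongation factor Eef2 (11.36 ± 0.08) and the microtubule protein Map1b (11.16 ± 0.22) were also among the 20 highest. The list further held Ptma, Nnat, Nedd4, Eif4g2, mt-Cytb, mt-Nd4, mt-Atp6, mt-Nd1 and the gene model Gm28661. Per kilobase 53 of the 100 highest genes remained, and the order began with Hbb-y (12.27), mt-Co1 (12.19), Gm28661 (11.87), Eef1a1 (11.87), mt-Atp6 (11.75) and Tuba1a (11.39). mt-Co1 was above Eef1a1 on that scale in 5 of 5 samples. The small proteins Tmsb10 (10.66) and Tmsb4x (10.64), which bind actin monomers, and the ribosomal protein gene Rpl41 (10.46) entered the 20 highest only on that scale. Map1b, whose transcript is 11.8 kilobases long, fell to 7.59 per kilobase.

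By family, the 81 measured genes of cytosolic ribosomal proteins held the largest share of the summed level among the families examined, 3.44% ± 0.37 (SD, n = 5). Elongation and initiation factors held 2.27% ± 0.046, the 13 genes of mitochondrial DNA 2.21% ± 0.22, and tubulins 1.36% ± 0.037. The mitochondrial share leaves out gene models that share sequence with mitochondrial genes, such as Gm28661 (level 11.32) and Gm28437 (10.21). The order of mitochondrial genes and translation factors is therefore uncertain. The hnRNP proteins, which bind nascent RNA, held 1.27% ± 0.090, chaperones and chaperonins 1.08% ± 0.060, nuclear genes of the respiratory chain 0.800% ± 0.088 and globins 0.725% ± 0.13. Histones, most of whose messages lack a poly(A) tail, held 0.480% ± 0.040, with the replication-independent genes H2afz (9.38), H3f3a (9.15) and H3f3b (8.66) leading per kilobase. The 326 zinc finger genes named Zfp together held 1.43%, although their median level was 4.59. Per kilobase of transcript the share of ribosomal proteins was 10.1% and that of globins 2.64%.

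The ribosomal protein share differed between samples, at 4.01%, 2.98%, 3.32%, 3.50% and 3.41% in wild types 1 to 5. Wild type 1 was highest in 60 of the 81 genes and wild type 2 lowest in 60. No share of all genes in which each sample was highest or lowest is set beside these counts. Among genes of at least median level wild type 1 was the sample farthest from the mean in 30.3%, and wild type 2 in 21.3%. Wild type 1 lay above the mean of the other 4 by a median of 0.64 for the 26 genes with the shortest coding sequence, of at most 390 bases, and by 0.17 for the 26 longest. Rpl41 stood at 10.10, 9.22, 9.63, 9.58 and 9.36, while Rpl4, a longer gene of the large subunit, stayed between 10.002 and 10.114 in all 5. Nuclear genes of the respiratory chain had the same highest and lowest samples, while the order of the others differed. Wild type 1 was highest in 70 of 97 genes (share 0.947%) and wild type 2 lowest in 50 (share 0.712%), again without a share over all genes. This order of wild types 1 and 2 is that of the shortest group of genes above; its part in these shares was not tested.

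Among the tubulins Tuba1a led per kilobase (11.39) and lay above Tubb5 (10.08) in 5 of 5 samples, and Tubb5 and Tubb2b (10.05) changed places between samples, Tubb5 being above in 3. The neuronal gene Tubb3 was at 10.04, 9.997, 10.16, 10.27 and 10.10. Tuba1a shares 59.4% of its 31-base words with other transcripts, above all Tuba1c and Tuba1b, so the division of reads between them is uncertain; the sum of Tuba1a and Tuba1b was steadier than either (SD 0.051 against 0.080 and 0.11).

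Globins marked the red blood cells of the tissue. Erythroid cells of the embryo carry embryonic and adult-type globins, and the primitive cells that arise in the yolk sac make embryonic globins together with adult-type alpha globin. Hbb-y stood at 11.93, 11.11, 11.60, 11.87 and 11.55, Hba-x, the embryonic alpha-like gene, at 9.99, 9.38, 9.36, 10.15 and 9.63, and Hbb-bh1 at 7.89, 6.66, 6.66, 7.40 and 6.77. The adult-type genes Hba-a1 (10.35 ± 0.21) and Hba-a2 (10.25 ± 0.17) share 92.6% of the words of Hba-a2, and Hbb-bs (8.42 ± 0.41) and Hbb-bt (7.41 ± 0.45) also overlap in sequence. Per kilobase Hbb-y lay above Hba-a2, the next globin, in 5 of 5 samples, and above mt-Co1 in 3. Wild type 2 was lowest in Hbb-y, Hba-a1, Hba-a2, Hbb-bs and Hbb-bt, and in the globin share, which was 0.842%, 0.531%, 0.7096%, 0.834% and 0.709%. The 7 globin transcripts are 0.554 to 0.801 kilobases long. In the shortest group of genes above, the median deviation was lowest in wild type 2, at -0.09, and was -0.07 in wild type 4, among the highest in globins. The part of length was not tested. In whole tissue fewer red cells and less RNA per cell cannot be told apart. Of the other erythroid genes, Slc4a1, the anion exchanger of the red cell membrane, was at 6.38 ± 0.29 and Alas2, the erythroid enzyme of haem synthesis, at 5.45 ± 0.20, while the regulator Gata1 was at 0.41; Hbb-bh2 and Ahsp have no value.

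The globins differ from most other abundant genes in the bases around their start. Mouse genes in RefSeq (GRCm38.p6) with 1 listed promoter, 8626 of those measured here, were examined from 250 bases before to 50 bases after the start. The dinucleotide CG, counted on 1 strand since it reads the same on both, had a median of 21 copies, rising from 8 in the lowest of 10 equal groups of genes by level to 26 in the highest. All 6 globin promoters found had 1 to 4 copies; fewer than 5 were held by 7.45% of all these genes and 2.80% of the 500 highest. Such low counts were also held by 5 of 9 microglia promoters and 1 of 14 radial glia promoters. Some other abundant genes held them too, among them Col3a1 (level 9.45) with 0 copies and Jund (8.24) with 3. The stretches below run from 90 bases before to 10 after the start, with CG in capitals, and set 2 globins beside a progenitor gene and 3 transcription factors of the telencephalon.
Hbb-y (chr7:103853198-103853297, minus strand): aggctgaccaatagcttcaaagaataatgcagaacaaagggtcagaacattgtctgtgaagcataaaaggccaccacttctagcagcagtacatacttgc
Hba-x (chr11:32276510-32276609, plus strand): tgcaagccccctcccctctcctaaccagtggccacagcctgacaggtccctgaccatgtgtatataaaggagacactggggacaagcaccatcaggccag
Vim (chr2:13574221-13574320, plus strand): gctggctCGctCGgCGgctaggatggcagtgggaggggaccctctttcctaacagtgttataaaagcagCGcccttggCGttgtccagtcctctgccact
Emx1 (chr6:85187841-85187940, plus strand): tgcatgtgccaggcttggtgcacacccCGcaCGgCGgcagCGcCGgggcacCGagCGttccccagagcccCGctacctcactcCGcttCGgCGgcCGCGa
Dlx1 (chr2:71529355-71529454, plus strand): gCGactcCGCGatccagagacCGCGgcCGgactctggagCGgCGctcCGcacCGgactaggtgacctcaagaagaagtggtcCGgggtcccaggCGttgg
Sox2 (chr3:34649905-34650004, plus strand): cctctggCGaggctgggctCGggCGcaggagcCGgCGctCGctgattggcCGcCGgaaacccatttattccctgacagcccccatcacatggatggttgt
The 2 globin stretches hold 0 CG, Vim holds 5, Sox2 8, Dlx1 12 and Emx1 13. The word TATAAA lies on the gene's strand wholly between 40 and 19 bases before the start in 1.26% of these promoters. Among them are Hba-x (its first base 28 bases before) and Vim (32 bases before). On the opposite strand the word lies there in 20 promoters. It was found in 3.13% of the lowest level group and 2.32% of the highest, against 0.348% to 2.09% in the groups between. A match is a description of the letters in this window and does not show a working site.

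In 16 families of sequence-specific factors 471 genes were measured; 232 of them (49.3%) lay above the median of all genes and 58 (12.3%) among the 10% of genes with the highest levels, and together they held 3.10% ± 0.086 of the summed level. Above the median level their median SD was 0.163, against 0.148 for all genes there. The SoxC genes Sox11 and Sox4, which act in newborn neurons, were the highest factors on both scales. Sox11 stood at 10.71, 10.96, 10.86, 11.12 and 10.87, and Sox4 at 9.95, 9.99, 10.02, 10.13 and 9.97. Per kilobase Sox11 (7.85) was above Sox4 (7.75) in 4 of 5 samples, and both were above Sox2 (7.26), the factor of neural progenitors, in 5 of 5. Sox12, the other SoxC gene, was at 8.45 ± 0.09 and Sox3 at 7.29 ± 0.11, while Sox10, a factor of glia and neural crest, was at a mean near 0 with an SD of 2.33.

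Nuclear receptors were led by Nr2f1 (9.02 ± 0.12, or 7.34 per kilobase), above Thra (6.80) and Nr2f2 (5.91) on that scale in 5 of 5 samples. Nr2f1 patterns the cortex along its front to back axis. Its level stood at 9.11, 9.11, 9.11, 8.87 and 8.92, lower in wild types 4 and 5 than in the others. The thyroid hormone receptor gene Thra was at 7.96 ± 0.21, Nr2f2 at 7.98 ± 0.08 and Nr2e1, which maintains progenitors, at 7.31 ± 0.13. The basic helix-loop-helix family was led per kilobase by Tcf3 (7.08), the E-protein partner of proneural factors, and Id4 (6.83), an inhibitor of such factors, Tcf3 being above Id4 in 5 of 5 samples. Hes6 (6.55) lay above Neurog2 (6.42) in 3 of 5 samples, and Neurog2 above Tcf12 (6.14) in 5. Among homeobox genes of the LIM, TALE, POU and related groups Lhx2 was followed per kilobase by Meis2 (6.59), Adnp (6.02) and Pou3f3 (5.84). Each was above the next in 5 of 5 samples, except Adnp above Pou3f3 in 4. Among those of the Antp and paired groups Dlx1 (6.01) led, and 16 of 53 genes were above the median of all genes.

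In the remaining families T-box genes were few: Tbr1, Mga and Eomes were above the median, and the other 10 of 13 were not. Among the Zic and Gli zinc fingers Zic1 (8.50 ± 0.09, or 6.43 per kilobase) was above Zic2 (5.69) and Gli3 (4.76) per kilobase in 5 of 5 samples. Among the leucine zippers Jund (8.24 ± 0.09, or 7.50 per kilobase) was above Creb1 (5.96) in 5 of 5, and Sp3 (5.38) was above Sp1 (4.33) in 5 of 5. All 10 E2f and Tfdp genes, which encode activators and repressors of cell cycle genes, were above the median, between 5.27 for Tfdp1 and 6.80 for Tfdp2. Tead2 (8.19 ± 0.10), an effector of the Hippo pathway, was per kilobase the highest of the Smad, Stat and Tead genes, at 6.73 above Smad5 (5.77) in 5 of 5 samples. Elf2 (4.79) was above Gabpa (4.72), the next Ets gene, in 4 of 5. In a mixed group Trp53 (5.98) was above Ctcf (5.78) in 4 of 5 and Ctcf above Bcl11a (5.39) in 5. All 4 Nfi genes were above the median, with Nfib at 7.89, 8.45, 8.57, 8.45 and 8.87.

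**Figure D2:**
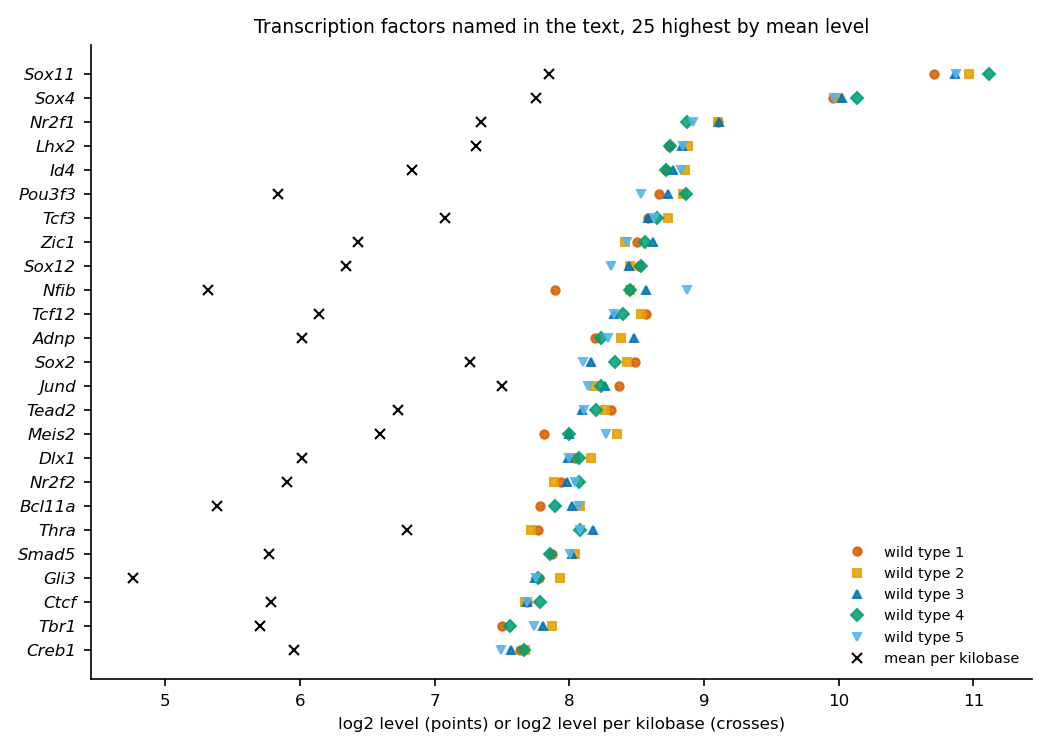
Log2 level in each wild type (coloured points) and mean log2 level per kilobase (crosses) of the 25 highest by mean level among the transcription factors that the text names (rows). Sox11 and Sox4 lie above the rest on both scales, and Nfib has the widest spread, with wild type 1 lowest at 7.89.

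Dorsal and ventral regions were both represented. In the dorsal set all 16 cortical patterning genes were above the median, with a summed share of 0.285% to 0.308%. Emx1, a homeobox gene of the pallium, stood at 5.62, 5.79, 5.90, 5.84 and 5.76, Emx2, graded towards the back of the cortex, at 6.48, 6.40, 6.89, 6.27 and 6.57, and Pax6, graded towards the front, at 7.23, 7.44, 7.17, 7.01 and 7.31. Per kilobase Pax6 (5.75) lay above Emx1 (5.14) in 5 of 5 samples, and Emx1 above Emx2 (4.98) in 4. Sp8 of the front of the telencephalon was at 5.53 ± 0.22. Zbtb20, a zinc finger factor of the medial pallium, differed most within the list, at 6.96, 7.07, 6.80, 8.03 and 7.05, with wild type 4 alone above 8.

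In the ventral set 15 of 20 genes of the lateral eminence and GABAergic lineage were above the median. Dlx1 stood at 8.04, 8.16, 7.99, 8.07 and 7.996, and Dlx2 at 7.05, 7.39, 7.001, 7.13 and 6.78. Gad2, an enzyme of GABA synthesis, was at 7.13 ± 0.14, and Gsx2, which specifies the lateral eminence, at 3.79 ± 0.34. Meis2 (8.08 ± 0.22), which the pallium also expresses, was per kilobase above Dlx1 (6.01) in 5 of 5 samples, at 6.59. Of 12 genes of the medial eminence 3 were above the median, Zic1, Nkx2-1 and Lhx6. Nkx2-1, which specifies this eminence, stood at 6.71, 7.02, 6.62, 6.45 and 6.27, and Lhx6, its target in interneurons, at 5.56, 6.33, 5.61, 6.29 and 5.38. Lhx8, a factor of cholinergic neurons, was at 4.10 ± 0.33. Zic1 is also a gene of the septum and dorsal midline.

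At the dorsal midline 6 of 14 genes of the cortical hem were above the median, and the list median was 3.69. The R-spondin genes Rspo1 (5.15 ± 0.20) and Rspo3 (5.81 ± 0.09), whose products amplify Wnt signals, and the homeobox gene Msx1 (5.17 ± 0.22) led per kilobase, at 4.27, 4.18 and 4.22, with an order that changed between samples. Wnt8b, a ligand of the hem and hippocampal primordium, stood at 5.42, 5.61, 5.62, 5.37 and 5.45. Wnt5a, at 4.75, 5.23, 5.49, 5.79 and 5.95, was the hem gene above the median with the largest SD, 0.48. Of 12 genes of Cajal-Retzius cells, among the first neurons at the surface of the cortex, 8 were above the median. Reln, which encodes a secreted protein that guides migrating neurons, stood at 7.02, 7.36, 7.76, 7.62 and 7.66. Of 12 choroid plexus genes 2 were above the median, Ttr, the carrier of thyroid hormone, and Otx2 (5.56 ± 0.18). Ttr stood at 5.50, 5.47, 6.42, 6.32 and 6.82, lower in wild types 1 and 2 than in each of the others, and Kcnj13 and Kl had means of -0.23 and -0.42.

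Genes of each step of the neurogenic lineage were measured. All 22 radial glia genes were above the median, with a share of 0.573% ± 0.028. The intermediate filament genes Vim, at 10.29, 10.15, 10.13, 10.20 and 10.08, and Nes, at 10.17, 9.77, 9.68, 10.09 and 9.68, had the highest levels of the list. Per kilobase Vim (9.04) was above Fabp7 (8.52), a lipid-binding protein of radial glia, and Fabp7 above Nes (7.26), each in 5 of 5 samples. Sox2 stood at 8.49, 8.43, 8.16, 8.34 and 8.10. All 30 cell cycle genes were above the median too. Ccnd2, a cyclin of dividing radial glia, was at 10.17 ± 0.16, Mki67 at 9.62 ± 0.12, Top2a at 9.57 ± 0.13 and Cdk4 at 9.20 ± 0.15. Per kilobase Cdk4 (8.16) was above Ccnd2 (7.51) in 5 of 5 samples. The 6 Mcm genes of the replication helicase ranged from 5.78 for Mcm5 to 8.14 for Mcm7.

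Of 14 intermediate progenitor genes 10 were above the median, and the summed share differed little between samples, 0.113% to 0.118%. The proneural gene Neurog2 stood at 7.53, 7.48, 7.64, 7.59 and 7.63, Eomes, which defines these cells, at 6.61, 7.11, 6.92, 6.81 and 7.06, and Hes6 at 7.29, 6.94, 6.85, 6.88 and 6.84. Of 26 genes common to neurons 25 were above the median, Celf3 (4.02 ± 0.33) being the other. Stmn1, a regulator of microtubules that progenitors also express, led per kilobase (10.34), above Tubb3 (9.21) in 5 of 5 samples, and Tubb3 above Dcx (9.16) of migrating neurons in 3.

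Of 16 cortical neuron genes 12 were above the median. Tbr1, a T-box factor of early-born neurons, stood at 7.50, 7.87, 7.80, 7.56 and 7.74. Neurod6, a factor of postmitotic glutamatergic neurons, stood at 5.30, 6.04, 6.51, 6.32 and 6.73, and Neurod2 at 5.67, 6.31, 6.67, 6.47 and 6.86. Wild type 1 was lowest and wild type 5 highest in both, a range of over 1 on the log2 scale, whereas Tbr1 ranged from 7.50 to 7.87. Markers of mature neurons and of glia lay on both sides of the median. Of 13 measured mature neuron genes 6 were above it, the highest at 6.94 ± 0.26. Among them was Slc17a6 (6.06 ± 0.19), the glutamate transporter of young neurons, while Grin2a, Pvalb, Vip, Slc6a3 and Chat have no value. Among glial genes Olig2 (5.54 ± 0.34), also a ventral progenitor factor, Slc1a2 (6.85 ± 0.43), Pdgfra (5.995 ± 0.35), shared with mesenchyme, and Mbp (4.84 ± 0.07) were above the median, and the defining genes Gfap (-2.25), Sox10 and Mog (1.18) were low, with no value for Aqp4 and S100b.

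In the Wnt pathway, which favours dorsal and medial fates, 20 of 25 genes were above the median, and the summed share varied less than in any other marker list, from 0.372% to 0.379%. Of the ligands Wnt7b (7.31 ± 0.09, or 5.67 per kilobase) was above Wnt8b (3.74), Wnt7a (3.72) and Wnt5a (2.63) per kilobase in 5 of 5 samples, and Wnt3a was at a level of 3.08 ± 0.33. The receptor genes Fzd3 (8.51 ± 0.12), Fzd2 (7.35 ± 0.07) and Fzd8 (7.03 ± 0.12), the coreceptor gene Lrp6 (7.24 ± 0.21) and Sfrp1 (8.43 ± 0.12), a secreted antagonist, were above the median. Per kilobase Fzd2 (5.47) was above Fzd3 (4.84) in 5 of 5 samples. Ctnnb1, beta-catenin, the mediator inside the cell, stood at 10.53, 10.55, 10.58, 10.47 and 10.53, and per kilobase, at 8.87, it was above Sfrp1 (6.30) in 5 of 5. The feedback target Axin2 was at 6.72 ± 0.19 and the effector Lef1 at 6.02 ± 0.08.

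In the Fgf pathway, which patterns the front of the telencephalon, 10 of 19 genes were above the median. Per kilobase Fgfr3 (5.63), Fgfr1 (5.24) and Fgfr2 (4.93) were the highest of 19 genes, each above the next in 5 of 5 samples, while Fgfr4 was at a level of -1.11 ± 1.53. The ligand Fgf15 stood at 5.56, 5.68, 5.13, 5.35 and 5.39, and Fgf8, the signal of the anterior midline, at 2.14, 1.58, 2.02, 1.96 and 0.75. The targets Spry1 (5.28 ± 0.23) and Etv5 (5.22 ± 0.25) were above the median, and Etv4 (2.67 ± 0.64) and Spry4 (2.65 ± 0.17) below it. In the Sonic hedgehog pathway, which ventralizes the telencephalon, the ligand Shh was at 4.43, 4.60, 4.06, 3.53 and 4.03. Its receptor Ptch1 (7.27 ± 0.12), the transducer Smo (7.46 ± 0.11) and the coreceptors Gas1 (7.89 ± 0.07) and Cdon (7.78 ± 0.35) were each above Shh per kilobase in 5 of 5 samples, at 4.32, 5.54, 7.68 and 4.90 against 2.62. Of the Gli factors Gli3, mainly a repressor, lay at 4.76 per kilobase, above Gli2 (3.73) in 5 of 5 samples, and Gli2 above Gli1 (2.44), the activator that is itself a target, in 5.

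In the Notch pathway, which keeps progenitors from differentiating, 17 of 19 genes were above the median. Among the receptors Notch1 (8.53 ± 0.17, or 5.28 per kilobase) was above Notch3 (4.78) and Notch2 (3.93) per kilobase in 5 of 5 samples. Among the ligands Dll1 (6.98 ± 0.14, or 5.14 per kilobase) was above Dll3 (4.33), Jag1 (3.08) and Jag2 (2.47) in 5 of 5, and Rbpj, the DNA-binding partner of the receptor, was at 7.53 ± 0.18. The effector Hes5 stood at 6.999, 6.62, 6.40, 6.20 and 5.97, the largest SD of the list apart from Hey2, whereas the effector Hey1 stayed between 5.61 and 5.79.

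Genes of cells from outside the neural wall were examined next. Mesenchyme and meninges genes were above the median in 10 of 18 cases, among them the fibrillar collagens Col1a1, at 9.23, 9.03, 9.72, 9.37 and 10.12, Col3a1 (9.45 ± 0.28) and Col1a2 (9.02 ± 0.35). Wild type 5 was highest in 11 of the 18 genes and wild type 4 lowest in 11, and the summed share was 0.231%, 0.197%, 0.276%, 0.207% and 0.341%. These counts too have no share over all genes beside them. Among genes of at least median level wild type 5 was the sample farthest from the mean in 14.3%, and wild type 4 in 21.4%. Endothelial and pericyte genes were above the median in 5 of 16 cases, with Kdr, the receptor for vascular endothelial growth factor, at 6.12 ± 0.15 and Cdh5 at 5.78 ± 0.14. Microglia genes were all measured and all below the median (16 of 16), with Mrc1 at 4.27 ± 0.27, Csf1r at 4.20 ± 0.34 and the homeostatic marker P2ry12 at -1.85. Surface epithelium genes were below the median in 12 of 12 measured cases, and Epcam and Foxi3 have no value; Krt5 stood at 2.83, 3.20, 4.16, 3.96 and 4.45.

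**Figure D3:**
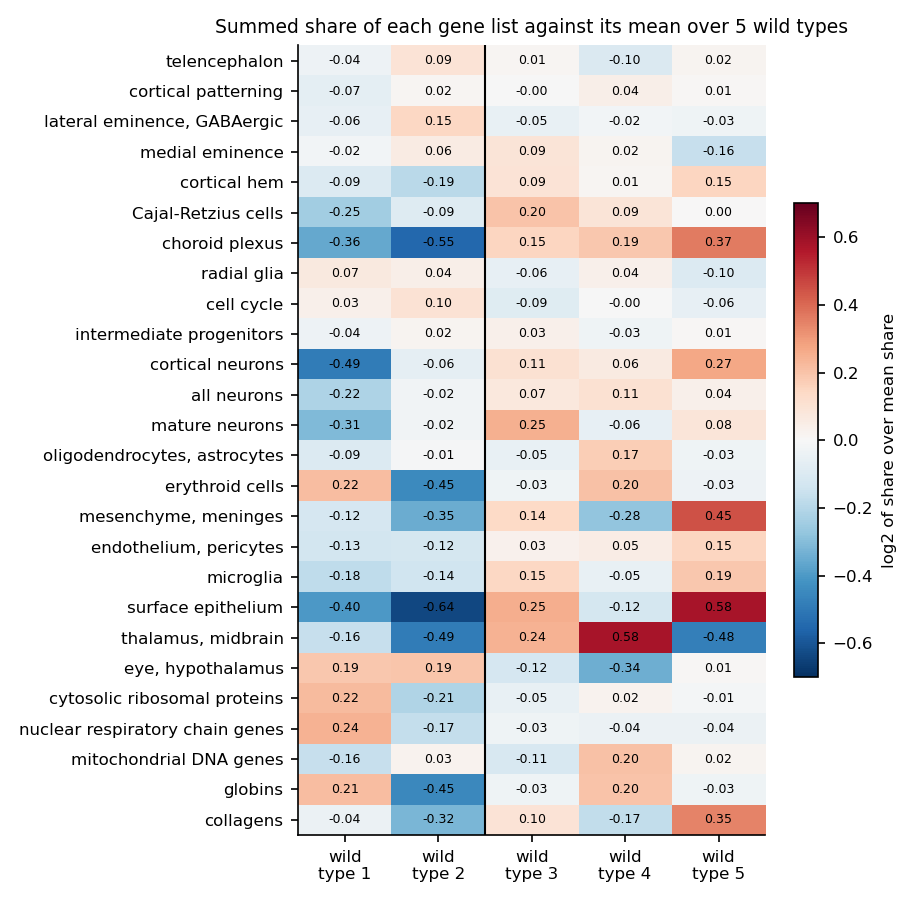
Log2 ratio of the summed share of each gene list in a wild type to its mean over 5 wild types (colour and printed value), with lists as rows, samples as columns and a line between the title numbers. Choroid plexus, cortical neuron and surface epithelium genes are below their means in wild types 1 and 2. For cortical neuron genes the values are -0.49 and -0.06, and surface epithelium genes are also below in wild type 4, at -0.12. The thalamus and midbrain share, in which Tcf7l2 weighs most, is highest in wild type 4, at 0.58.

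The 2 title numbers are the 1 grouping that the labels give within the wild types, and they were set side by side without a test. Over all genes 13.7% were lower in both wild types titled Polr_2048 than in all 3 titled Polr_2138, and 9.76% were higher in both. Of 12 choroid plexus genes 9 were lower in both and 0 higher, and of 16 microglia genes 10 were lower and 1, Tmem119, higher. Among genes of at least median level the background was 11.6% lower and 12.1% higher. Of 26 genes common to neurons 13 were lower, among them Mapt, the axonal protein tau, with 7.33 and 7.49 against 8.21, 8.001 and 8.46, and 1, Stmn4, was higher. Of 16 cortical neuron genes 8 were lower and 0 higher, with Nfia at 6.59 and 7.06 against 7.44, 7.46 and 7.81 and Nfix at 6.70 and 7.34 against 7.86, 7.54 and 7.83.

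Cell cycle genes had more members higher than lower. Of 30 cell cycle genes 13 were higher in both wild types titled Polr_2048, among them Ccnd1 with 8.87 and 8.76 against 8.44, 8.68 and 8.42, and 1, Ccnd2, was lower. Of 22 radial glia genes 7 were higher and 2 lower, and of 14 intermediate progenitor genes 2 were higher and 3 lower. Hmga2, a chromatin protein that declines as progenitors mature, and chosen after its values were seen, stood at 7.96 and 8.02 against 7.48, 7.68 and 7.57. The genes of a list are not independent of each other. In the length groups wild types 1 and 2 had median deviations of 0.15 and -0.09 in the shortest group and of -0.13 and 0.07 in the longest. The part of transcript length in these counts was not tested.

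Spread between samples fell with level. The median SD was 0.148 for the 7398 genes of at least median level and 0.385 below it, and 23.3% of those at or above the median had an SD under 0.1 and 1.20% an SD over 0.5. Among genes of at least median level the steadiest was Rab7, a GTPase of late endosomes, between 7.47 and 7.48, followed by Wwc2 (SD 0.0099), Fam168b (0.015), Atp5a1 (0.018) and Eif3h (0.019). The widest of them, gene models and pseudogenes apart, was the ribosomal protein gene Rpl29, at 8.99, 7.87, 2.58, 8.92 and 8.89, which wild type 3 alone set apart. Prr14l was high in wild type 4 alone (6.11, 6.07, 5.95, 8.17 and 5.82), and Capza1, an actin-capping protein, was low in wild type 1 alone (5.97, 7.33, 7.76, 7.89 and 7.84). Nr4a2, an early response and neuronal factor, spread without a single outlier, at 6.23, 5.05, 5.60, 4.28 and 3.95. Short ribosomal genes were among the widest: Rps29 stood at 8.46, 6.55, 7.25, 7.60 and 6.88 and Rps28 at 8.28, 6.63, 6.95, 7.43 and 6.70.

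Of the 20 widest genes of at least median level 9 were gene models or pseudogenes, which make up 2.62% of these genes. Several share nearly all of their sequence with an expressed gene. Gm28437 has 100% of its 31-base words in mt-Co3, and wild type 4 was lowest in the former and highest in the latter, with 10.10, 10.84, 10.49, 9.50 and 10.12 for Gm28437 and 10.60, 10.45, 10.85, 11.49 and 11.14 for mt-Co3. Their sum had an SD of 0.166, against 0.501 and 0.421 for the parts. Rpl3-ps1, with 94.7% of its words in Rpl3, fell to -1.77 in wild type 4, where it was 8.02 to 8.35 in the others, and in that sample Rpl3 was highest (9.79, against 8.91 to 9.21); the SD of the sum was 0.074. For such pairs the division of reads between the copies is uncertain, and the level of mt-Co2 (8.71), whose words are shared to 99.5% with Gm28661 (11.32), is that of the pair's smaller part.

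**Figure D4:**
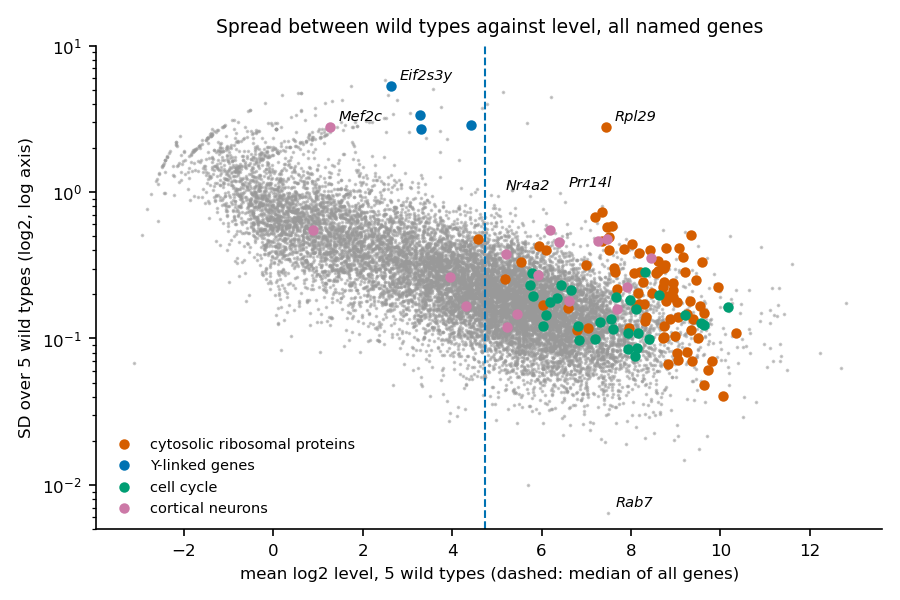
SD over 5 wild types (y axis, log scale) against mean log2 level (x axis) of the named genes, with 4 lists coloured and the median level dashed; 5 genes with an SD under 0.005 fall below the axis. Rpl29 stands above most genes of like level, and Y-linked genes form a high group at low mean level.

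Genes on the Y chromosome varied by sample as a block. Eif2s3y stood at -3.16, 6.50, 6.59, -3.16 and 6.40, Kdm5d at 1.12, 6.77, 6.33, 1.46 and 6.43, Ddx3y at 0.14, 5.73, 5.64, -0.88 and 5.72, and Uty at -0.30, 5.45, 5.11, 1.11 and 5.19. Wild types 2, 3 and 5 were high in all 4 genes and wild types 1 and 4 low, so each title number holds samples of both kinds. Polr1a itself stood at 5.38, 5.38, 5.62, 5.51 and 5.64 (mean 5.51 ± 0.12), rank 5338 of 14796. Of 12 measured genes of RNA polymerase I and its shared subunits 8 were above the median, led per kilobase by Polr2e (5.82) and Polr1d (5.78), while 4 listed names have no value, 3 of which, Polr1f, Polr1g and Polr1h, are measured under the older symbols Twistnb, Cd3eap and Znrd1.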

How the data were processed

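RNA of the telencephalon was measured in 5 wild-type samples at embryonic day 12, all those whose genotype label reads wt. The deposited table holds log2 values per gene and sample that the authors normalized; put back on the linear scale, each sample sums to nearly the same total, as CPM would, with a floor of -3.16. The build is GRCm39, per the submitters' processing notes, and the aligner, the counter and the gene models used are not stated in the sources here. Counts and depth are unknown, so low genes have no counting error. A row without a gene name was left out, which left 14796 genes.

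Means, SDs, ranks, summed linear shares and list counts were computed with Python 3.11.15, pandas 2.3.3 and numpy 2.4.6, and plotted with matplotlib 3.10.9. Lengths are those of principal transcripts in GENCODE's GRCm38 annotation, used for lengths alone, and were found for 14709 genes (99.4%). Promoters are from RefSeq, and sharing between copies was counted in 31-base words. The scripts were tested on simulated data.

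Named genes were the 20 highest by level and per kilobase, the 3 highest of each transcription factor family, up to 6 of each marker list, 5 of each family, a fixed set of 24, and the 20 largest and smallest SDs. A further 41 of the 212 genes named, such as Hmga2, Mapt, Zbtb20, Rpl3-ps1 and the lowest members of lists, were chosen after their values were seen. Members and lists were chosen with earlier results of these data known. Alternatives were each sample left out, each title number alone, centring, quantile normalization, a filter on low genes and levels per kilobase. No test between groups was made, and single samples far from the rest were picked out by Dixon's critical value. Some results are not reported here.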

Additional observations from a re-analysis of the deposited data

Results flagged for a closer look

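In each group of 5 values the gap of the highest or lowest sample to its neighbour was compared with the whole range, and a sample was singled out where the ratio passed Dixon's critical value for 5 samples. Chance does so in about 1 of 20 groups that are chosen without regard to their values. Some of the genes examined were named for their SD or after their values were seen, so that rate does not apply to the count here. Of 251 genes and summed shares examined, 18 were singled out, 6 in wild type 4, 6 in wild type 2, 4 in wild type 1, 1 in wild type 3 and 1 in wild type 5.

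Wild type 4 was highest in Prr14l (8.17, next 6.11), Zbtb20 (8.03, next 7.07), mt-Atp6 (11.45, next 11.18) and Ctcf (7.78, next 7.69). mt-Atp6 shares 99.5% of its words with the gene model Gm10925, and the sum of both was 11.47 in wild type 4 and 11.33 in the next sample. Wild type 4 was lowest in Rpl3-ps1 (-1.77, next 8.02) and in the neuronal gene Stmn4 (5.78, next 6.22).

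Wild type 2 was lowest in the globin genes Hba-a2 (9.94, next 10.27) and Hbb-bt (6.62, next 7.49), whose sums with their copies Hba-a1 and Hbb-bs were 10.97 (next 11.34) and 8.36 (next 8.95). It was highest in Gli3 (7.93, next 7.77) and Fam168b (9.21, next 9.18). It also had the highest summed share of the lateral eminence and GABAergic list, 0.174% (next 0.155%), and of the immediate early and heat shock list, 0.393% (next 0.348%). The share of the latter rests mainly on chaperone genes with means of 10.89 and 10.39. The highest immediate early gene of that list had a mean of 6.88.

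Wild type 1 was lowest in Capza1 (5.97, next 7.33) and in Dcx (9.23, next 9.63), a microtubule protein of migrating neurons. It was highest in Hes6 (7.29, next 6.94) and in the astrocyte gene Gfap (-0.0020, next -2.41), which is near the floor. Wild type 3 was lowest in Rpl29 (2.58, next 7.87). Wild type 5 was lowest in the Notch ligand gene Dll3 (5.18, next 5.78).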

How the results depend on the processing

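No paired analysis was possible because no groups were compared. Of 462 alternative values for 42 summary results, 423 stayed within the spread between samples or within 1.5 times the count, as did 261 of 264 for 24 single genes. Leaving out each sample gave 2 to 4 thalamus and midbrain genes above the median and kept 66 to 79 of the 100 genes of largest SD. With only genes at or above the 25th percentile, which raises the median itself, fewer genes lay above it: 4 of Cajal-Retzius cells, 3 of the hem, 3 of endothelium, 1 of thalamus and midbrain, 1 of eye and hypothalamus, 5 of the Fgf pathway and 5 of RNA polymerase I; 45 of the 100 genes of largest SD were kept and 40 genes had an SD over 0.5. In samples titled Polr_2048 alone tubulins held 1.32% and chaperones 1.15%, 35 of the 100 genes of largest SD were kept and 227 genes had an SD over 0.5; in those titled Polr_2138 alone 52 were kept and 4 thalamus and midbrain genes lay above the median. Per kilobase of transcript 53 of the 100 highest genes and 13 of the 20 highest transcription factors were kept, and the shares were 10.1% for ribosomal proteins, 2.35% for translation factors, 5.01% for mitochondrial DNA, 1.61% for tubulins, 1.83% for nuclear respiratory genes, 2.64% for globins, 0.708% for histones, 0.601% for actins and 0.178% for collagens. Per kilobase of coding length, an alternative chosen after seeing the data, 54 of the 100 were kept, and the shares were 8.47% for ribosomal proteins, 1.98% for translation factors, 1.11% for tubulins, 1.16% for hnRNPs, 0.650% for chaperones, 1.76% for nuclear respiratory genes, 1.84% for globins, 1.15% for histones and 0.113% for collagens. Unknown depth limits what can be said of genes near the floor.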
